A study of Mus musculus with 12 samples.

Results

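The 7 genes described here were Cdx2, Eomes, Elf5, Tfap2c, Hand1, Krt8 and Krt18, a set of trophoblast transcription factors and simple epithelial keratins taken by name from the 25759 genes in each of the 12 tables of a mouse embryonic stem cell (ESC) series. All 7 were found in all 12 tables. They are defined by their names and not by a cut on a measured value.

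The trophoblast is the first epithelium of the mouse embryo and gives rise to the fetal part of the placenta. ESCs derive from the other early lineage, the epiblast, and normally keep the trophoblast programme switched off. Cdx2, Eomes, Elf5 and Tfap2c encode transcription factors that maintain trophoblast stem cells, Hand1 encodes a basic helix-loop-helix factor needed for trophoblast giant cells and also used in extraembryonic mesoderm and heart, and Krt8 and Krt18 encode the partner keratins that pair into the intermediate filaments of simple epithelia. Eomes is also known from the primitive streak, and Tfap2c from germ cells and from ESCs themselves.

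The cells in all 4 groups were of the mouse ESC line HATX3, a line of haploid origin that is now diploid, and all 4 groups share an Xist allele that doxycycline switches on. The groups were uninduced wild-type (numbers 1, 2 and 3), wild-type with Xist induced for 48 h, uninduced ΔCdk8 (genotype Cdk8-/-, clones 8, 11 and 15) and ΔCdk8 with Xist induced for 48 h, with 3 libraries in each. Each ΔCdk8 line is 1 clone, in which a small deletion removes the start codon of Cdk8, the kinase of the Mediator complex, and nothing says whether the wild-type numbers stand for separate cultures, so that p-values measure the spread between these samples, which may be technical. Polyadenylated RNA was sequenced, and levels are given as TPM (transcript abundance scaled to a fixed total per library), which are also scaled by exon length and can be compared between genes.

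The total of gene-assigned reads ran from 22170087 in the shallowest library to 60798578 in the deepest. Total Cdk8 RNA stood at 51.5 to 74.2 TPM in wild-type and 33.4 to 85.3 TPM in ΔCdk8 libraries, which does not check a deletion of the start codon. As an ESC marker, Pou5f1 was read at 685 to 1779 TPM in all 12 libraries, and the 12 pluripotency markers examined summed to 2449 to 4332 TPM with none at 0. Within each genotype 1 sample stood apart, wild-type number 1 and ΔCdk8 clone 11. Over 14661 genes its log2 levels correlated with wild-type numbers 2 and 3 at r = 0.975 and 0.972 in uninduced conditions, against 0.994 between numbers 2 and 3, and at 0.972 and 0.976 against 0.994 after induction. With the 3 uninduced clones it correlated at 0.972 to 0.977, as closely as with the other wild-type samples, and after induction at 0.956 to 0.969, below its values with the other wild-type samples. Clone 11 correlated with clones 8 and 15 at 0.962 and 0.959 in uninduced conditions, against 0.985 between clones 8 and 15, and at 0.961 and 0.952 against 0.979 after induction. Results for the members are given with and without wild-type number 1, the effect of leaving out clone 11 is given beside the comparisons of genotypes, and the source of either difference was not tested.

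Cdx2 (ENSMUSG00000029646) lies on the reverse strand of GRCm38 chromosome 5 from 147300805 to 147307270, Eomes (ENSMUSG00000032446) on the forward strand of chromosome 9 from 118478212 to 118486132, and Hand1 (ENSMUSG00000037335) on the reverse strand of chromosome 11 from 57828705 to 57832818. Elf5 (ENSMUSG00000027186) and Tfap2c (ENSMUSG00000028640) share the forward strand of chromosome 2, from 103411688 to 103450989 and from 172549593 to 172558622. Krt8 (ENSMUSG00000049382, reverse strand, 101996711 to 102004342) and Krt18 (ENSMUSG00000023043, forward strand, 102028216 to 102032026) stand head to head on chromosome 15 with their starts 23.9 kb apart. All 7 are protein-coding. The median gene of chromosome 9, which carries Eomes, stood at 0.942 to 1.16 times its own median over the 12 libraries. On the other chromosomes of the members it stood within 0.965 to 1.07 times. The source of the wider range on chromosome 9 was not tested. Counting was uncertain for a pair of members, since Eomes overlaps the antisense gene Gm33460 and Krt8 the lincRNA gene Gm36026, neither of which has a row in the tables, and the strand setting of the counting was not given in the sources used here. Of the Krt8 exon reads, 79.1% to 88.3% were uniquely mapped, against 100% for the other members in every library with at least 10 exon reads, and 1 annotated pseudogene bears the name of Krt8.

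Sequence before the RefSeq start is shown for the keratin pair, whose levels followed each other across the libraries, and for Eomes, the member whose levels separated the genotypes. Windows of 250 bases were searched, and the 140 bases of the Krt8 window and 36 bases of the Krt18 window nearest the start, which lie inside the longer gene models of GENCODE, are not printed. The sequences were read from RefSeq (GRCm38.p6) and are written 5′ to 3′ on the strand of the gene, with matches to the motifs named below in capitals. RefSeq starts were found for 5 of the 7 members.
Krt8, chr15:102004483-102004592, reverse strand: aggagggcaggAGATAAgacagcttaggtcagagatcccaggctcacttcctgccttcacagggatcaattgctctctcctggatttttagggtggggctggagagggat
Krt18, chr15:102027966-102028179, forward strand: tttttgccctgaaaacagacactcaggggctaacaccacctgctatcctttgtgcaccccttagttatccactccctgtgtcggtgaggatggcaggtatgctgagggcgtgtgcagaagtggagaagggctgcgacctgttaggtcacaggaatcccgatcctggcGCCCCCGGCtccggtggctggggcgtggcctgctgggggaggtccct
Eomes, chr9:118477939-118478188, forward strand: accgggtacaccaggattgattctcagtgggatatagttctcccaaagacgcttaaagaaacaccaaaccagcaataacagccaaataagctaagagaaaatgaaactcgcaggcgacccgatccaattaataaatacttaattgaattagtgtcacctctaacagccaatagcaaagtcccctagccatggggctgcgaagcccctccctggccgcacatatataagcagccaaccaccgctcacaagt
The windows were searched on both strands for letters bound by the AP-2 family to which Tfap2c belongs (GCCNNNGGC, held by 13.7% of 32851 windows of the same length), by T-box factors such as Eomes (AGGTGTGA, 1.12%), by CDX factors (TTTATG, 10.8%), by TEAD factors (GGAATG, 12.6%) and by GATA factors (AGATAA, 9.99%), and for a TATA box (TATAAA, 12.4%). Krt18 held 1 AP-2 match, 83 to 75 bases before its start, Krt8 held 1 GATA match, 239 to 234 bases before its start, and these letters were not found in the Eomes window. Only exact letters were searched, and the Eomes window holds the similar letters TATATAAG near its end, so that a TATA box is not excluded there. GC content was 60.4% for Krt18, 58% for Krt8 and 46.4% for Eomes, against a median of 52.4% over all windows.

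By mean TPM over the 12 libraries, the keratins were the most abundant of the 7 (Krt18 at 94.0 and Krt8 at 52.8), followed by Tfap2c at 27.5, Hand1 at 14.2, Eomes at 4.84, Elf5 at 1.04 and Cdx2 at 0.55. The members varied strongly among the wild-type samples. In uninduced conditions wild-type number 1 was more than 2-fold above both other wild-type samples for 6 of the 7 genes (all but Krt8), which held for 1044 of the 14646 genes tested (7.13%). No member had wild-type number 2 or 3 in that position, against 0.696% and 1.58% of genes. After induction wild-type number 1 again stood more than 2-fold above both others for 6 of 7 members (all but Tfap2c), against 8.31% of 14143 genes.

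**Figure D1:**
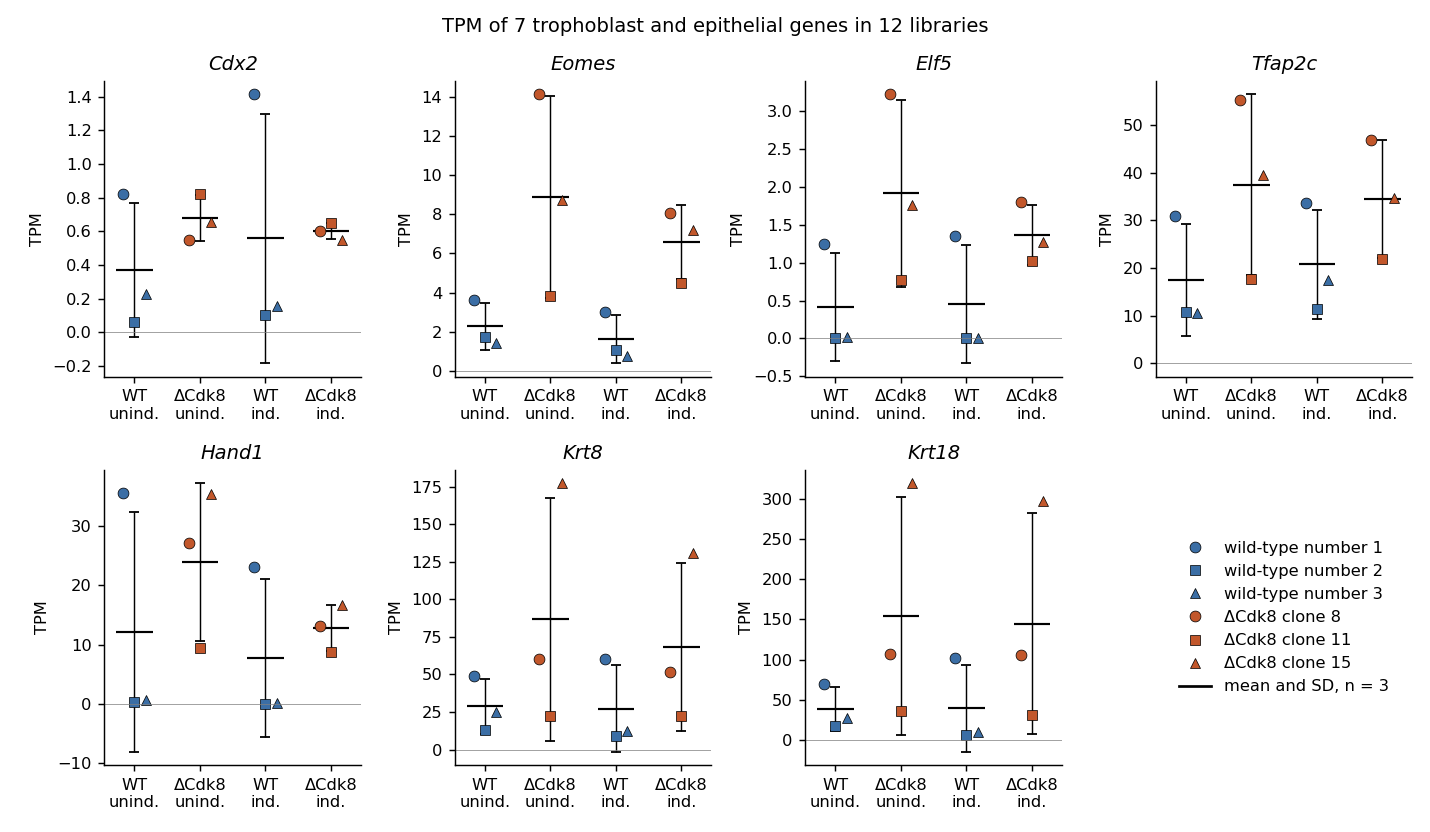
TPM of each member (vertical axis, linear, 1 panel per gene) in the 4 groups, with 1 point per library, a horizontal line at the mean and a bar of 1 SD (n = 3), which can reach below 0. In every panel wild-type number 1 (blue circle) is the highest wild-type sample, and clone 15 (orange triangle) carries the highest Krt8 and Krt18, at 177 and 320 TPM in uninduced conditions.

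Eomes was the 1 member whose levels separated the genotypes in both conditions. In uninduced conditions it was read at 3.64, 1.73 and 1.45 TPM in wild-type numbers 1, 2 and 3 and at 14.1, 3.84 and 8.70 TPM in ΔCdk8 clones 8, 11 and 15. After induction it was read at 3.02, 1.06 and 0.775 TPM in wild-type and at 8.06, 4.48 and 7.22 TPM in ΔCdk8 libraries. Every ΔCdk8 library was above every wild-type library in each condition, although clone 11 was only slightly above wild-type number 1 in uninduced conditions. The same held for 16.3% of 14646 genes tested in uninduced conditions and 18.6% of 14143 after induction, so that 1 of 7 members is near that share. The group means were 8.88±5.14 TPM in uninduced ΔCdk8, 6.59±1.87 TPM in induced ΔCdk8, 2.27±1.19 TPM in uninduced wild-type and 1.62±1.22 TPM in induced wild-type libraries (mean±s.d., n = 3), and neighbouring groups of the same genotype overlapped.

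Cdx2, the homeobox factor that specifies the trophoblast, was barely expressed in these cells. It was read at 0.819, 0.0630 and 0.226 TPM in uninduced wild-type numbers 1, 2 and 3 and at 0.551, 0.824 and 0.658 TPM in clones 8, 11 and 15. After induction the wild-type samples stood at 1.41, 0.1003 and 0.158 TPM and the clones at 0.604, 0.650 and 0.551 TPM. The clones were close to each other and above wild-type numbers 2 and 3 in both conditions, while the highest value of all came from induced wild-type number 1. The wild-type values rest on as few as 2 reads.

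Elf5, an ETS factor whose methylated promoter keeps the trophoblast programme closed in ESCs, was near 0 in some wild-type samples. It had 44, 0 and 1 reads in uninduced wild-type numbers 1, 2 and 3 (1.24, 0 and 0.0157 TPM), and 51, 0 and 0 reads after induction (1.35, 0 and 0 TPM). The ΔCdk8 clones 8, 11 and 15 stood at 3.22, 0.765 and 1.76 TPM in uninduced conditions and at 1.80, 1.02 and 1.27 TPM after induction. Elf5 was therefore read in all 6 ΔCdk8 libraries and in both libraries of wild-type number 1, which lay within the range of the clones. A floor of 3 reads corresponds to at most 0.125 TPM in the induced libraries of wild-type numbers 2 and 3, so that the lowest induced clone was at least 8.16-fold higher than these samples. In uninduced conditions the clones together had 332 reads against 1 read in wild-type numbers 2 and 3, a depth-corrected ratio of 213 with an exact 95% interval of 38.0 to 8451 that covers counting error only. These wild-type samples were pooled because they were near 0, so that the ratio does not describe wild-type as a group.

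Tfap2c, which encodes AP-2γ, was the most abundant of the transcription factors. It was read at 31.0, 10.7 and 10.5 TPM in uninduced wild-type numbers 1, 2 and 3 and at 55.3, 17.6 and 39.6 TPM in clones 8, 11 and 15. After induction these values were 33.6, 11.4 and 17.4 TPM in wild-type and 46.8, 22.0 and 34.6 TPM in ΔCdk8 libraries. Clones 8 and 15 were above every wild-type sample in both conditions, and clone 11 was below wild-type number 1 in both.

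Hand1 had the widest fold range among wild-type samples of the 6 members that were above 0 in all of them. In uninduced conditions it was read at 35.5 TPM in wild-type number 1 (892 reads), and at 0.286 and 0.598 TPM in numbers 2 and 3 (8 and 28 reads), a 124-fold span within 1 genotype. The uninduced ΔCdk8 clones 8, 11 and 15 stood at 27.1, 9.36 and 35.4 TPM. After induction Hand1 was read at 23.1, 0.0568 and 0.0895 TPM in wild-type (605, 1 and 3 reads) and at 13.1, 8.71 and 16.6 TPM in clones 8, 11 and 15. Wild-type number 1 was above every clone in both conditions, and the other wild-type samples were far below every clone. Numbers 2 and 3 were pooled for a ratio because they were near 0, so that it describes these samples and not wild-type as a group. The depth-corrected ratio of the clones to wild-type numbers 2 and 3 was 48.6 in uninduced conditions (exact 95% interval 35.0 to 69.6, 2724 against 36 reads) and 160 after induction (62.2 to 587, 1188 against 4 reads), with intervals that cover counting error only.

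Krt8 and Krt18 were highest in clone 15, and clone 11 was the lowest of the clones. Krt8 was read at 48.8, 12.95 and 25.04 TPM in uninduced wild-type numbers 1, 2 and 3 and at 60.3, 22.3 and 177 TPM in clones 8, 11 and 15. Krt18 was read at 69.6, 17.4 and 27.3 TPM in the same wild-type samples and at 107, 35.7 and 320 TPM in the clones. After induction Krt8 stood at 60.4, 8.80 and 12.4 TPM in wild-type and 51.7, 22.3 and 131 TPM in ΔCdk8 libraries. Induced Krt18 stood at 102, 5.18 and 9.88 TPM in wild-type and at 106, 30.3 and 298 TPM in ΔCdk8 libraries. The span among the 3 uninduced clones was 7.97-fold for Krt8 and 8.96-fold for Krt18, wider than that among uninduced wild-type samples (3.77-fold and 3.997-fold). Among induced wild-type samples Krt18 spanned 19.7-fold, against 9.83-fold among induced clones.

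The 2 keratins followed each other, and their ratio differed in size between samples. Krt18 over Krt8 in TPM was 1.43, 1.34 and 1.09 in uninduced wild-type numbers 1, 2 and 3 and 1.77, 1.61 and 1.81 in clones 8, 11 and 15, which did not overlap. The difference of 0.442 between the group means gave p = 0.1 in a two-sided exact permutation test, the smallest p that 3 against 3 samples allow. After induction the ratio was 1.69, 0.589 and 0.793 in wild-type and 2.05, 1.36 and 2.27 in ΔCdk8 libraries, which overlapped (p = 0.2, same exact permutation test). The share of Krt8 reads that were not uniquely mapped, given above, adds to the uncertainty of the ratio.

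**Figure D2:**
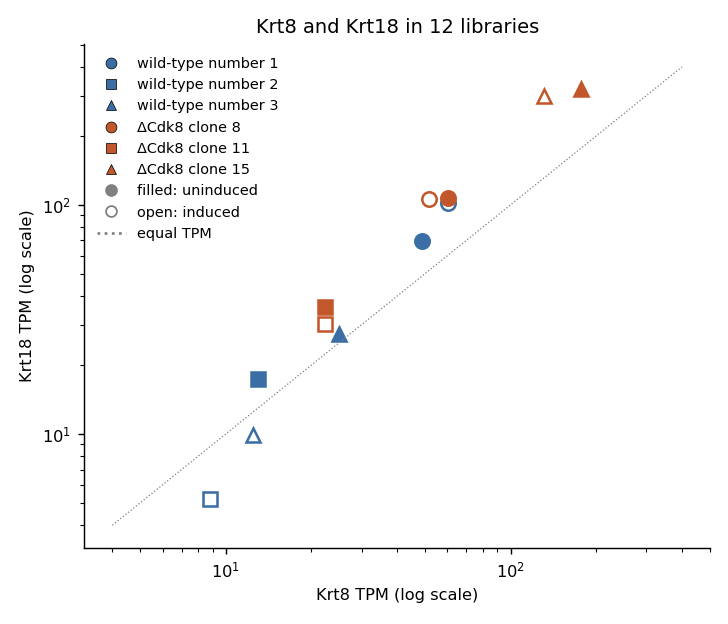
Krt18 TPM (vertical axis, log scale) against Krt8 TPM (horizontal axis, log scale), 1 point per library, filled when uninduced and open when induced, with a dotted line at equal TPM. The libraries line up from induced wild-type number 2 (8.80 and 5.18 TPM) to uninduced clone 15 (177 and 320 TPM), and the induced libraries of wild-type numbers 2 and 3 fall below the line.

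The comparison of uninduced ΔCdk8 with uninduced wild-type libraries sets the genotypes side by side before Xist was induced. The paper describes the parental HATX3 cells as polyclonal and possibly partly differentiated. Loss of Cdk8 and derivation as a clone cannot be told apart here. All 7 fitted log2 fold changes were positive, but no member passed in edgeR's quasi-likelihood test, where passing required an adjusted p under 0.01 and more than a 2-fold change. Eomes was higher by 1.77±0.53 on the log2 scale (estimate±s.e., 3.41-fold, unadjusted p = 0.011, adjusted p = 0.168). Krt18 gave 1.79±0.77 (adjusted p = 0.246), Krt8 1.35±0.71 (adjusted p = 0.306) and Tfap2c 0.92±0.51 (adjusted p = 0.324). For the genes at or near 0 in some wild-type samples the errors were large, at 0.77±1.46 for Hand1, 2.06±1.45 for Elf5 and 0.78±0.81 for Cdx2, with adjusted p of 0.414 to 0.77. The background was 0% as well, since 0 of 14646 genes passed in edgeR, where 2982 genes had an unadjusted p under 0.05. At that unadjusted level 1 of 7 members was higher (Eomes), against 11.9% of all genes. DESeq2's Wald test called 264 genes higher (1.8%) and 122 lower, and 0 of the 7 members, with Eomes nearest at an adjusted p of 0.0162.

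Without wild-type number 1, the uninduced comparison of these genes changed in size. Cdx2 and Elf5 then had too few reads in at least 1 of the other wild-type samples and entered the fit only through the clones, where they are higher, so that their p carries no weight, and Hand1 rests on 8 and 28 wild-type reads. The other 5 members all had an unadjusted p under 0.05 and were higher in ΔCdk8 libraries, against 17.3% of 15133 genes, but none had an adjusted p under 0.01 in edgeR. Wild-type number 1 was the highest wild-type sample for these members, so leaving it out was bound to raise their fold changes. The counts in this setting are therefore no test of the members, and the shares of all genes do not rest on such a choice. Hand1 rose from a log2 fold change of 0.77 to 5.51±0.70 (adjusted p = 0.0337), Krt18 from 1.79 to 2.54±0.82 (adjusted p = 0.119) and Eomes from 1.77 to 2.29±0.53 (adjusted p = 0.067). Tfap2c gave 1.60±0.42, Krt8 1.96±0.79 and Cdx2 2.01±0.73, with adjusted p of 0.0857 to 0.165, and Elf5 had an adjusted p of 0.041. DESeq2's Wald test without that library called Eomes, Tfap2c, Hand1 and Krt18 (adjusted p of 4.69e-18 to 0.0026), against 6.18% of genes called higher, and also Elf5, to which the same limit applies. In TPM, every clone was above every wild-type sample for 1 of 7 members with all libraries (Eomes, background 16.3%) and, without wild-type number 1, for all but Krt8 (background 30.5%, Cdx2 and Elf5 with the same limit). Without clone 11 no member passed in edgeR either, with Eomes at 2.09±0.47 (adjusted p = 0.0445), Krt18 at 2.22±0.65 (adjusted p = 0.0682) and Krt8 at 1.77±0.61 (adjusted p = 0.0959). Leaving out clone 15, the highest for both keratins, lowered Krt18 to 0.76±0.64 and Krt8 to 0.37±0.59 (adjusted p of 0.589 and 0.784 in edgeR).

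The same comparison after 48 h of induction was made on separate libraries of the same clones and wild-type numbers, so that it is no independent sample of either. Eomes was higher by 1.87±0.52 on the log2 scale (3.66-fold, unadjusted p = 0.0072, adjusted p = 0.09 in edgeR), and DESeq2's Wald test called it at an adjusted p of 0.0058. It was the 1 member called by DESeq2, which called 3.83% of 14143 genes higher and edgeR 0%. With all 12 samples in 1 edgeR fit, 110 genes passed as higher and 35 as lower, and without clone 11 16 and 38, with 0 of the 7 members in either. At an unadjusted p under 0.05, edgeR had 3668 genes in all, 14.9% of the genes tested as higher, and again 1 of 7 members (Eomes). The others ranged from 0.05±0.88 for Cdx2 to 1.69±1.11 for Krt18, with adjusted p of 0.355 to 0.975 in edgeR.

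Without wild-type number 1, Cdx2, Elf5 and Hand1 entered the induced fit only through the clones, with 2 and 6, 0 and 0, and 1 and 3 reads in wild-type numbers 2 and 3. The other 4 members all had an unadjusted p under 0.05 and were higher in the induced ΔCdk8 libraries (background 18.4%), and no member had an adjusted p under 0.01 in edgeR. Here too the library left out was the highest wild-type sample for these members, so that the counts are no test of them. Krt18 gave 3.97±0.89 and Krt8 2.39±0.65 on the log2 scale (adjusted p of 0.0577 and 0.0755). Eomes gave 2.64±0.40 (adjusted p = 0.0343), Cdx2 2.01±0.67 (adjusted p = 0.109) and Tfap2c 1.03±0.35 (adjusted p = 0.11). DESeq2's Wald test called Eomes, Krt8 and Krt18, against 6.99% of genes called higher, and also Elf5 and Hand1, to which that limit applies. The TPM of every clone exceeded that of every wild-type sample for 1 of 7 members with all libraries (Eomes, background 18.6%) and for all 7 without wild-type number 1 (background 32.8%), those 3 included. Without clone 11 no member passed in edgeR, with Eomes nearest at 2.03±0.55 (adjusted p = 0.0499).

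**Figure D3:**
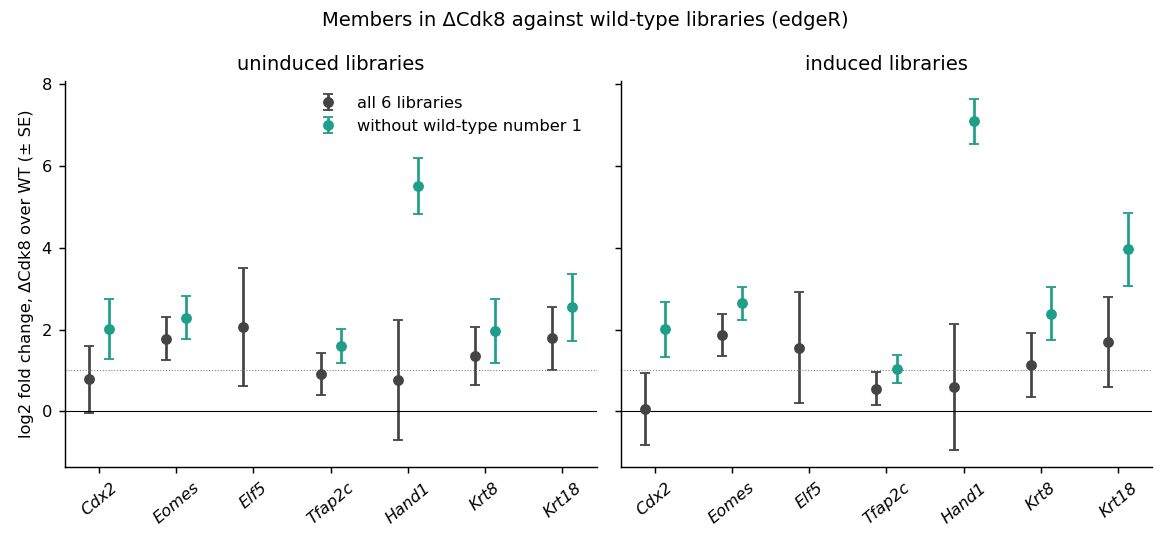
Log2 fold change of ΔCdk8 over wild-type libraries (vertical axis, ± SE from edgeR, dotted line at a fold change of 2) for each member in uninduced (left) and induced (right) libraries, with all 6 libraries in grey and without wild-type number 1 in green. Elf5 has no green point because its wild-type numbers 2 and 3 had at most 1 read. Hand1 goes from 0.77 to 5.51 in uninduced libraries, on few wild-type reads. The green points of Cdx2 in both panels and of Hand1 on the right belong to genes tested only through the clones. Their size carries no weight.

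Induction of Xist for 48 h was compared with uninduced conditions in each genotype. Hand1 was lower after induction in all 3 wild-type samples (0.15 to 0.649 of the uninduced TPM) and in all 3 clones (0.47 to 0.931), although wild-type numbers 2 and 3 rest on the few reads given above. Eomes was lower in all 3 wild-type samples (0.535 to 0.829) and in 2 of 3 clones. Tfap2c was higher in all 3 wild-type samples (1.06 to 1.66) and in 1 of 3 clones. Krt8 and Krt18 were lower in wild-type numbers 2 and 3 and higher in number 1 (Krt18 at 0.298, 0.362 and 1.47 of the uninduced TPM), and Krt18 was slightly lower in all 3 clones (0.847 to 0.992).

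No member passed the threshold in wild-type, where Eomes gave -0.50±0.59, Tfap2c 0.28±0.53, Hand1 -0.67±2.17, Krt8 -0.10±0.77 and Krt18 0.01±1.06 on the log2 scale, Cdx2 and Elf5 fell to the filter on low counts, and 162 of 14006 genes passed (1.16%), a number that was 0 without any 1 of the libraries of wild-type numbers 2 and 3, while DESeq2 called 222 genes higher and 440 lower. No member passed in ΔCdk8 libraries either, with the largest log2 fold change at -0.85±0.44 for Hand1 and adjusted p of 1 for all 7, and 0% of 14832 genes passed in edgeR, which had 392 genes at an unadjusted p under 0.05, while DESeq2 called 36. With the sample number as a block, 206 genes passed as higher and 347 as lower in wild-type, and 20 and 188 in ΔCdk8 libraries, with no member among them. At an unadjusted p under 0.05, 2 of 5 members were then lower in wild-type (Eomes and Hand1, background 17.7%) and 3 of 7 in ΔCdk8 libraries (Eomes, Hand1 and Krt8, background 11.9%). The clearest was Hand1 in the clones, at -0.76±0.15 (adjusted p = 0.0019), a fold change below the minimum of 2.

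Without the sample number as a block, the 2 induction effects did not differ past the threshold for any of the 7 members. Nor did they for any of 15137 genes (0%), of which edgeR had 587 at an unadjusted p under 0.05 and DESeq2 called 33. These differences ranged from -0.71±1.31 for Cdx2 to 0.12±0.77 for Eomes. The block, which uses the pairing of libraries, gave 118 genes higher and 33 lower past the threshold, with 0 of the 7 members among them. Without both libraries of wild-type number 1, and with the sample number as a block, Krt18 fell by 1.57±0.15 on the log2 scale in the 2 remaining wild-type samples (adjusted p = 2.82e-05) and was the 1 of 4 members tested that passed, against 5.12% of genes lower. In the same setting the induction effect on Krt18 was higher by 1.46±0.15 in ΔCdk8 than in wild-type libraries (adjusted p = 3.49e-05), and 1 of 7 members passed, against 2.5% of genes higher. With all 12 libraries the blocked difference for Krt18 was 0.62±0.46 (adjusted p = 0.457), and without wild-type number 1 but also without the block it was 1.45±1.28 (adjusted p = 1), so that the call needed both changes. In wild-type number 1 Krt18 was higher after induction.

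**Figure D4:**
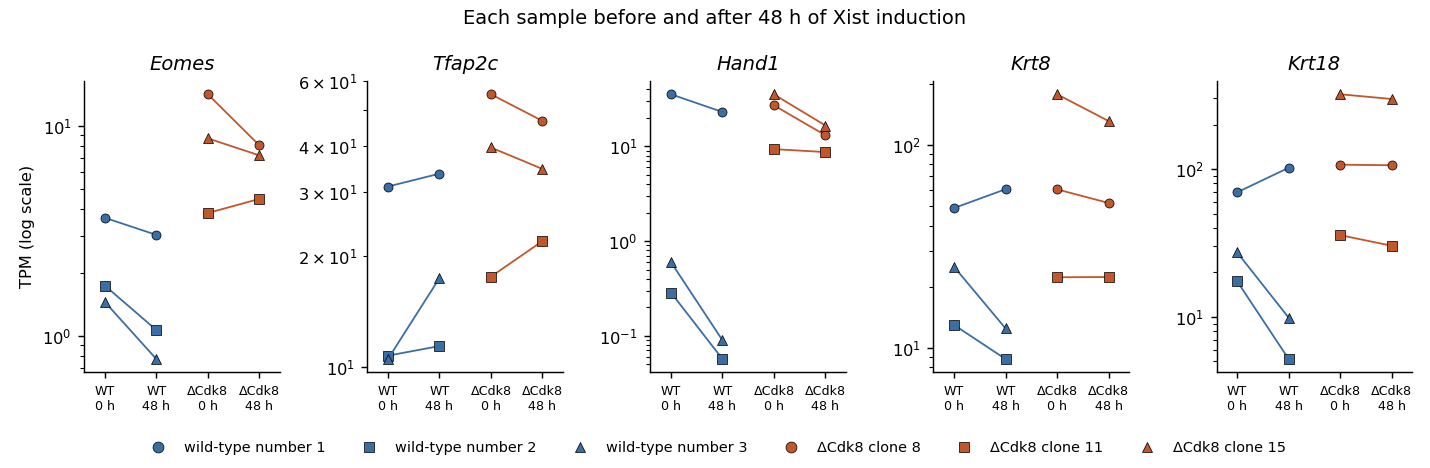
TPM (vertical axis, log scale) of the 5 members with enough reads for the wild-type induction test, with a line joining the uninduced (0 h) and induced (48 h) library of each wild-type number or clone. Hand1 falls along all 6 lines, and Krt18 falls from 17.4 to 5.18 TPM in wild-type number 2 but rises from 69.6 to 102 TPM in number 1.

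Other genes of the trophoblast programme were examined as lists in the uninduced comparison, where the median log2 fold change of all genes was 0.03. None of the genes in any list passed the threshold in edgeR, the background being 0%. DESeq2 called 6 genes of these lists, all higher, against 1.8% of all genes: the trophoblast regulator Wwtr1 (adjusted p = 0.0055), the junction gene Dsg2 (3.86e-05), the mesenchymal gene S100a4 (0.0019), Ahnak of the extraembryonic mesoderm and heart list (0.0017), and the pluripotency genes Tbx3 (3.81e-10) and Tfcp2l1 (0.0034). S100a4 had at most 0.146 TPM in uninduced wild-type libraries and entered the fit only through the clones, so that its call carries no weight. At an unadjusted p under 0.05, 11.9% of all 14646 genes were higher and 1244 genes lower, and without wild-type number 1 17.3% of 15133 genes were higher and 1726 lower. Counts without wild-type number 1 include genes with too few reads in wild-type, which were tested only through the clones, where they are higher, as for 487 of the 2619 genes higher in that setting. Leaving out that library also raises the fold change of any gene for which it was the highest wild-type sample. List medians are given with all libraries, since without wild-type number 1 many of these genes are at or near 0 in wild-type. Of 26 other trophoblast regulators, 7 were higher and 1 lower at an unadjusted p under 0.05 (median 0.78), and 13 and 3 without wild-type number 1, 1 of the 13 (Dlx3) tested only through the clones. The 3 with the smallest p were Wwtr1, a coactivator of TEAD factors, at 1.81±0.48 (11.7, 4.89 and 4.62 TPM in wild-type numbers 1, 2 and 3 and 33.8, 12.9 and 40.5 TPM in clones 8, 11 and 15), and the homeobox and SOX genes Msx2 and Sox21 at 2.09±0.65 and 2.41±0.78. Yap1, the most abundant of the list at a mean of 116 TPM, gave -0.08±0.12.

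Of 24 genes of differentiated trophoblast, 12 had enough reads, and 0 of these had an unadjusted p under 0.05 (median 0.97), while 7 of 12 were higher without wild-type number 1, 5 of them (Syna, Plac1, Pparg, Wnt7b and Pcdh12) tested only through the clones. Their summed level was 162 to 1320 TPM in uninduced wild-type and 364 to 1199 TPM in uninduced ΔCdk8 libraries, and 7 to 15 of the 24 were at 0. The placental markers Tpbpa and Prl3d1 reached at most 0.0291 and 0.0891 TPM. Peg10, an imprinted gene needed for the placenta and the most abundant of the list, was read at 995, 17.01 and 37.0 TPM in wild-type numbers 1, 2 and 3 and at 552, 3.90 and 458 TPM in clones 8, 11 and 15. The genes with the smallest p were Plac8 (-0.75±0.39) and the X-linked homeobox genes Rhox6 (2.23±1.27) and Rhox9 (2.18±1.29), which belong to a family of similar copies. In uninduced conditions wild-type number 1 stood more than 2-fold above both other wild-type samples for 8 of the 12 genes tested and for 9 of the 26 regulators, against 7.13% of all genes.

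The remaining epithelial genes were mixed. All 5 simple epithelial keratins tested, Krt8 and Krt18 among them, had positive log2 fold changes, 0 with an unadjusted p under 0.05 (median 1.38), and without wild-type number 1 all 5 were higher at that level, Krt20 tested only through the clones. Krt19 was read at 18.9, 1.13 and 1.87 TPM in wild-type numbers 1, 2 and 3 and at 40.4, 16.6 and 43.8 TPM in the clones (2.03±0.99). Of 4 stratified keratins tested, Krt17 was the 1 with an unadjusted p under 0.05, at 1.89±0.63 (median 1.11), beside Krt14 at 0.85±0.54 and Krt16 at 1.38±1.17, and 2 of 4 reached it without wild-type number 1, Krt16 only through the clones. Of 31 junction genes tested, 3 were higher and 1 lower at that level (median 0.24), and 8 and 2 without wild-type number 1. Dsg2, a desmosomal cadherin, was the clearest at 11.01, 8.08 and 6.31 TPM in wild-type numbers 1, 2 and 3 and 25.8, 25.6 and 23.5 TPM in clones 8, 11 and 15 (1.41±0.23, adjusted p = 0.113 in edgeR and 3.86e-05 in DESeq2), and wild-type number 1 was below every clone. Cdh3, which encodes P-cadherin, gave 1.11±0.38, and Cdh1, which encodes E-cadherin, -0.21±0.15 at a mean of 443 TPM.

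Markers of other cell types that share members with the trophoblast programme were counted in the same way. The share of all genes higher was 11.9% with all libraries and 17.3% without wild-type number 1. Of 11 mesenchymal genes tested, 1 was higher and 1 lower at an unadjusted p under 0.05 (median 0.18), with Fn1 at -0.32±0.13, Vim at -0.47±0.33 and S100a4 at 5.61±1.00 from at most 0.146 TPM in uninduced wild-type libraries. S100a4 was the 1 higher and, with all libraries too, was tested only through the clones, so that its p carries no weight. Of 5 primitive streak markers tested, where Eomes is also used, 0 passed that level (median 0.75), with Tbx6 at 0.81±0.46, Evx1 at 1.71±1.00, Wnt3 at -1.48±1.19 and Mesp2 at 0.11±0.46. Of 4 markers of extraembryonic mesoderm and heart tested, where Hand1 is also used, 1 was higher (Ahnak, a large scaffold protein, 1.495±0.33), beside Kdr at -0.97±0.63, Tbx20 at 0.74±0.55 and Myl7 at 0.24±0.38 (median 0.49). Primitive endoderm markers had 4 of 11 higher (median 0.93), with Gata4 at 2.22±0.67, Amn at 2.003±0.65, Col4a1 at 1.58±0.59 and Lamb1 at 0.01±0.28. Germ cell markers had 3 of 9 higher (median 0.45), with Ddx4 at 1.00±0.24, Dazl at 1.09±0.30, Prdm14 at 1.84±0.70 and Dppa3 at -0.77±0.37. Pluripotency markers had 3 of 12 higher (median 0.47), with Tbx3 at 2.46±0.32, Tfcp2l1 at 1.88±0.48, Nanog at 1.42±0.45 and Pou5f1 at -0.17±0.36. Fibroblast markers had 1 of 5 higher (Pdgfrb, 3.28±0.95), with Col1a1 at 1.82±0.84 and Thy1 at 0.63±0.45 (median 1.76). Without wild-type number 1 the genes higher at that level numbered 1 mesenchymal, 0 primitive streak, 1 extraembryonic mesoderm and heart, 6 primitive endoderm, 2 germ cell, 4 pluripotency and 2 fibroblast, and none of these lists had a lower gene. Of these, S100a4, Gata6 and Pdgfrb were tested only through the clones. In the induced comparison with all libraries, the medians were -0.10 for mesenchymal, -0.23 for germ cell and -0.07 for pluripotency genes. They were 0.32 for primitive streak, 0.75 for extraembryonic mesoderm and heart, 0.65 for primitive endoderm and 1.49 for fibroblast markers. Summed levels of the primitive endoderm markers were 49.2 to 93.8 TPM in uninduced wild-type and 113 to 182 TPM in uninduced ΔCdk8 libraries with none at 0, and those of the fibroblast markers 8.87 to 17.7 and 19.6 to 29.8 TPM with up to 2 of 7 at 0. Fewer cells of a type and less RNA per cell cannot be told apart in bulk samples, and the part of these other cell types in the members' levels was not tested.

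The close relatives of the members did not share their pattern throughout. Among the AP-2 genes, Tfap2a was read at 0.520, 0.857 and 0.903 TPM in uninduced wild-type numbers 1, 2 and 3 and at 0.852, 0.513 and 0.387 TPM in the clones (-0.73±0.46), and Tfap2d had at most 0.0969 TPM and was at 0 in all 6 ΔCdk8 libraries. Cdx1 was read at 0.920, 0 and 0.0732 TPM in wild-type and 0.864, 1.85 and 2.16 TPM in ΔCdk8 libraries (2.17±1.19), and, as for Cdx2, uninduced wild-type number 1 was above the other wild-type samples. The Cdx genes had a median of 1.47 over the 2 tested, Cdx2 included. With all uninduced libraries no gene of either family had an unadjusted p under 0.05. Without uninduced wild-type number 1, Tfap2c was higher at that level, and so were Cdx1 and Cdx2, tested only through the clones. With all induced libraries Tfap2a was lower (-1.97±0.50, unadjusted p = 0.0046 in edgeR) and 1 Cdx gene was higher at that level.

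For each member with a mean of at least 1 TPM, the 3 genes with the most similar levels over the 12 libraries were found among 12130 other genes by the Pearson correlation of log2(TPM + 0.1), which is a description over 12 libraries that are not independent. Krt8 and Krt18 were each among the 3 genes most like the other (r = 0.984), together with Golph3 (0.988) and Csf1 (0.985) for Krt8 and with Fhl2 (0.982) and the desmosomal gene Dsp (0.981) for Krt18. Hand1 was closest to 3830417A13Rik (0.982), Wnt7b (0.975) and Klhl13 (0.974), and Elf5 to Ankrd33b (0.992), Wnt7b (0.984) and Dnaic2 (0.98). Wnt7b, a Wnt ligand of the placenta, was thus shared by Hand1 and Elf5 and was read at 14.5, 0.0162 and 0.309 TPM in uninduced wild-type numbers 1, 2 and 3 and at 19.0, 5.10 and 15.6 TPM in clones 8, 11 and 15. Tfap2c was closest to Tmc4 (0.981), Tcf20 (0.977) and Tinagl1 (0.976), and Eomes to Pter (0.978), C1rl (0.976) and Stk31 (0.971). These choices moved with the measure of likeness, since ranks in place of levels kept 1 of the 3 genes for Eomes, Tfap2c and Hand1 and 0 of the 3 for Elf5, Krt8 and Krt18. A pseudocount of 1 kept all 3 for Tfap2c and Hand1, 2 for Krt8 and Krt18, 1 for Elf5, where Wnt7b was lost, and 0 for Eomes.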

How the data were processed

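RNA of 12 libraries (4 groups of 3) was analysed. The authors sequenced TruSeq Stranded mRNA libraries as single-end reads and mapped the untrimmed reads with the CLC Genomics Workbench to the Ensembl GRCm38 annotation, 1 table per library. The deposited counts are unnormalised gene reads, in total, uniquely mapped, and on exons and introns. Recomputing the deposited TPM from the exon counts and exon lengths gave a relative difference of at most 0.000196. The deposited fraction columns (unique over total exon reads, intron over total gene reads) were used for description only. Raw reads and the deposited RPKM values were not used here, and Xist has no row in the tables.

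The 7 members, the gene lists and the tests were chosen with earlier results of these data known. Total gene reads (22170087 to 60798578 per library) of all genes were fitted in R 4.3.3 with edgeR 4.0.16 (TMM factors, low counts removed by filterByExpr at 10 per library and 15 in total, two-sided quasi-likelihood F test, Benjamini-Hochberg adjustment over all genes tested). The standard error was the log2 fold change over the square root of F. Genes past an adjusted p of 0.01 that also changed more than 2-fold were called. Levels, ranges and similarities were computed in Python 3.11.15 (pandas 2.3.3, numpy 2.4.6, scipy 1.17.1), and figures drawn with matplotlib 3.10.9. The fits were tested on simulated data.

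Named genes were the members, for each list the 3 genes with the smallest p and the most abundant gene, and for each member of at least 1 TPM the 3 most similar genes. 1 gene that this rule names is not reported here. Alternatives were DESeq2 1.42.0, its size factors in edgeR, no filter, exon reads, unique reads, an adjusted p under 0.05 with no fold minimum, all 12 samples in 1 fit, the replicate block, leaving out each sample, and for likeness a pseudocount of 1 or ranks. Leaving out both libraries of wild-type number 1, and leaving it out under DESeq2 or with exon reads, were added after seeing the data. Samples of the same number were treated as pairs in the replicate block and in ratios of induced to uninduced TPM, but not in the main fits. A clone number marks the same clone. Deviations from group means of same-numbered libraries correlated at 0.881, 0.915 and 0.858 for clones 8, 11 and 15 and at 0.692, 0.627 and 0.583 for wild-type numbers 1, 2 and 3 over 14661 genes.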

Additional observations from a re-analysis of the deposited data

How the results depend on the processing

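With 3 samples per group and wild-type number 1 unlike the others, depth limited only Cdx2, Elf5 and Hand1, which had 0 to 8 reads in some wild-type libraries. The number of members past the threshold stayed at 0, in each comparison where it was run, under DESeq2's size factors, no filter, exon reads, unique reads, no fold minimum, all 12 samples in 1 fit, the replicate block and leaving out single samples. DESeq2's Wald test gave 1 after induction, and, without wild-type number 1, 5 in uninduced and 5 in induced libraries, of which Elf5 and, after induction, Hand1 were tested only through the clones. The replicate block without both libraries of wild-type number 1 gave 1 for induction in wild-type and 1 for the difference in induction. The block itself moved the genes passed from 21 higher and 141 lower to 206 and 347 in wild-type, from 0 and 0 to 20 and 188 in ΔCdk8 libraries and from 0 and 0 to 118 and 33 for the difference. The cause of these changes was not tested.

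The log2 fold changes of all 7 members kept their direction under every alternative in the uninduced comparison, but not their size. When single samples were left out, the lowest values were 0.28 for Cdx2, 1.28 for Eomes, 0.53 for Tfap2c and 1.405 for Elf5. They were 0.19 for Hand1, 0.37 for Krt8 and 0.76 for Krt18. In induced libraries Cdx2 ranged from -0.40 to 2.01 when single samples were left out. For induction in wild-type, Krt18 (0.01 as reported) reversed to -0.0043 with DESeq2, -0.0045 without the filter, -0.78 with the replicate block, -1.54 without both libraries of wild-type number 1 and -1.57 with both changes. For the difference in induction, the replicate block reversed Hand1 to 0.23, Krt8 to 0.17 and Krt18 to 0.62. Leaving out both libraries of wild-type number 1 reversed Cdx2 to 0.021, Elf5 to 1.90, Hand1 to 1.61, Krt8 to 0.46 and Krt18 to 1.45, and with the block to 0.080, 2.08, 1.79, 0.56 and 1.46.

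Leaving out single samples, each of them in 1 condition, gave ranges that crossed 0. For induction in wild-type they were -7.20 to 4.05 for Hand1, -1.40 to 0.49 for Krt8, -2.30 to 0.74 for Krt18 and -0.23 to 0.95 for Tfap2c, the ends being set by wild-type number 1. In ΔCdk8 libraries they were -0.28 to 0.14 for Cdx2, -0.72 to 0.094 for Eomes, -0.38 to 0.31 for Tfap2c, -0.68 to 0.32 for Elf5, -1.10 to 0.65 for Krt8 and -1.06 to 0.94 for Krt18, with clone 15 setting both keratin ranges. For the difference they were -1.97 to 1.25 for Cdx2, -0.43 to 0.89 for Eomes, -1.06 to 0.13 for Tfap2c, -5.65 to 6.97 for Elf5, -4.93 to 6.33 for Hand1, -1.01 to 1.06 for Krt8 and -1.08 to 2.20 for Krt18, where Elf5 values are fitted against libraries at or near 0 and depend on the prior count. DESeq2 gave no p for Hand1 in wild-type induction.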
